A study of Mus musculus with 6 samples.

Results

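The smooth muscle contractile genes followed here are Acta2, Myh11, Myl9, Mylk, Tagln, Cnn1, Smtn, Lmod1, Synpo2 and the regulator Myocd, taken by symbol from the comparison tables, where all 10 were present among 27179 genes. RNA had been sequenced from C2C12, an immortalised line of mouse myoblasts, 48 h after the medium was changed to horse serum with insulin to make the cells differentiate. The groups were cells with a stable shRNA against BAF250A, cells with a stable shRNA against BRD9 and, as the control of both, cells with a stable scrambled shRNA, with 2 libraries each. BAF250A is encoded by Arid1a and is a subunit of BAF, and BRD9 a subunit of ncBAF, which are different assemblies of the SWI/SNF enzymes that move nucleosomes. The labels name 1 construct target per line and do not say whether the lines were clones or pools. The tables do not state the numerator, and a positive value was taken to mean more RNA in the knockdown, because the targeted gene is negative in its own table. Arid1a stood at -1.95 (SE 0.48) in the authors' deposited BAF250A table, and Brd9 at -1.60 (SE 0.54) in the authors' deposited BRD9 table.

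Smooth muscle cells contract when calcium and calmodulin activate the myosin light chain kinase (Mylk), which phosphorylates the regulatory light chain (Myl9) of a smooth muscle myosin (heavy chain Myh11) so that it pulls on smooth muscle alpha-actin (Acta2). Calponin (Cnn1), transgelin (Tagln), smoothelin (Smtn), leiomodin (Lmod1) and synaptopodin 2 (Synpo2) bind actin filaments. Many of these genes are switched on by serum response factor (SRF), which binds a DNA element called the CArG box, with myocardin (Myocd) or its relatives Mrtfa and Mrtfb as coactivators. In myofibroblasts and immature skeletal muscle cells several of them, Acta2 and Tagln among them, are also expressed outside smooth muscle.

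The stretches before the transcription start of 4 of these genes show where the CArG element lies, and they are printed because the results below turn on these genes. They come from RefSeq on GRCm38.p6, the same assembly as mm10, and cover 250 bases up to the base before the start, 5′ to 3′ on the strand of the gene. Acta2 is at chr19:34255374-34255623 on the minus strand, Myl9 at chr2:156775214-156775463 on the plus strand, Lmod1 at chr1:135324563-135324812 on the plus strand and Cnn1 at chr9:22099003-22099252 on the plus strand. Capitals of 10 letters mark a CArG box with at most 1 mismatch, and capitals of 6 letters mark the MCAT element, the binding site of TEAD factors.
Acta2: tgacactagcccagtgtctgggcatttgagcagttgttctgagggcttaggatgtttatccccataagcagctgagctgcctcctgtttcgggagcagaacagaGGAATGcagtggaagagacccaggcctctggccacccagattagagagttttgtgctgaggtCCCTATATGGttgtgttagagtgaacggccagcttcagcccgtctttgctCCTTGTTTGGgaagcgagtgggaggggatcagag
Myl9: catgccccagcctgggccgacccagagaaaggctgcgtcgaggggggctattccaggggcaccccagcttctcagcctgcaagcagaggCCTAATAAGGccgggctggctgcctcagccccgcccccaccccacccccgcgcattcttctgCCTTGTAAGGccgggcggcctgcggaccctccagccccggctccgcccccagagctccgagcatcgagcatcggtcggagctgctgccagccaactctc
Lmod1: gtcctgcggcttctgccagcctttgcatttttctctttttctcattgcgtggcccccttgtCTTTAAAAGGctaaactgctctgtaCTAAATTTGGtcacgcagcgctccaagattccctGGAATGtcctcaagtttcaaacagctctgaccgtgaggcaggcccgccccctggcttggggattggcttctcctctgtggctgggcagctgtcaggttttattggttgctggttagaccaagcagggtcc
Cnn1: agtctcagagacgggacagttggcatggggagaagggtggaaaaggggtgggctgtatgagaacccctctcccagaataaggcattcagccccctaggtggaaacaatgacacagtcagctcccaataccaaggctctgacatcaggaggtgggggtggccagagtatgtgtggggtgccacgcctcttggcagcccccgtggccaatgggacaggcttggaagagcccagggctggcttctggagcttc
The Acta2 matches are CCCTATATGG and CCTTGTTTGG, at 84 and 34 bases before the start. In Myl9 the match CCTAATAAGG, at 161 bases before the start, keeps the full consensus, and CCTTGTAAGG, at 99 bases, has 1 mismatch. Lmod1 holds CTTTAAAAGG at 189 and CTAAATTTGG at 164 bases before its start. Cnn1 has no match in this window.

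Of the 10 genes, 7 had a RefSeq entry of this kind (Acta2, Myl9, Lmod1, Cnn1, Smtn, Mylk and Synpo2), and Tagln, Myh11 and Myocd had none. A CArG box with at most 1 mismatch was found in 3 of the 7, against 18.6% of 32841 RefSeq promoters of the same length. All of Acta2, Myl9 and Lmod1 had 2 matches, and 2.96% of all promoters had 2 or more. With no mismatch allowed, Myl9 alone kept a match, against 1.47% of all promoters. The CArG consensus reads the same on both strands, so that a match stands for both. The MCAT element, searched as CATTCC on the gene's strand and as GGAATG for the other strand, was found in Acta2, Lmod1, Mylk and Smtn, against 12.6% of all promoters, and overlapped none of the CArG matches. RefSeq's promoter starts do not always fall on the annotated 5′ end of the gene. The start lies 212 bases past that end for Acta2, 56 for Myl9, 32 for Cnn1, 19 for Synpo2 and 39751 for Mylk, and on it for Lmod1 and Smtn. Both CArG matches and the MCAT match of Acta2, and the whole Mylk window, therefore lie downstream of the annotated 5′ end. These matches are letters in a window and no evidence that a factor was bound.

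**Figure D1:**
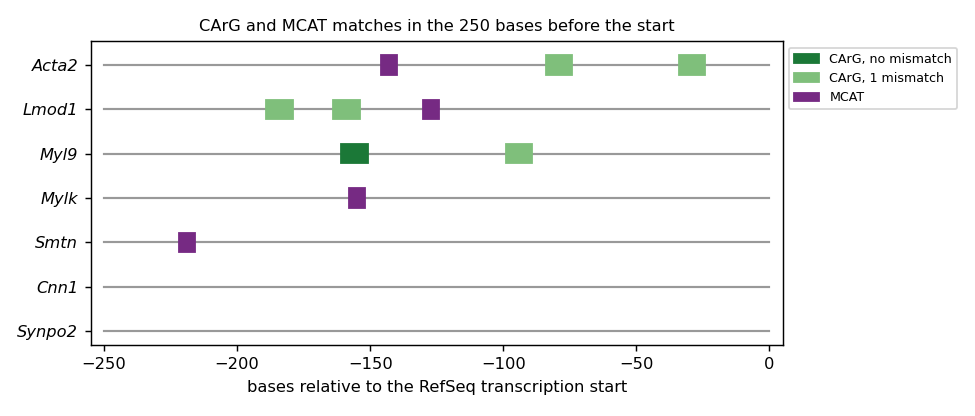
Position of motif matches (x axis, bases relative to the RefSeq transcription start) in the 250 bases before the start of 7 smooth muscle genes, with boxes for CArG matches without mismatch, CArG matches with 1 mismatch and MCAT matches. Acta2, Lmod1 and Myl9 hold 2 CArG matches each, and Cnn1 and Synpo2 hold no match of either kind.

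The control libraries stand apart from the knockdown libraries in depth and in how reads fell. Whole reads could be solved for all 4629 genes with a mean normalized count below 3 in the BAF250A table and for all 4508 in the BRD9 table. The size factors, which scale with depth, were 0.801 and 0.773 for BAF250A knockdown, against 1.58 and 1.09 for scrambled shRNA. They were 0.841 and 0.782 for BRD9 knockdown, against 1.48 and 1.07 for scrambled shRNA in that table. Among genes with reads, the solved number was even in 72.2% and 81.2% of genes in the BAF250A knockdown libraries and in 81.1% and 78.8% in the BRD9 knockdown libraries, against 56.6% to 57.2% in the scrambled shRNA libraries. How this bears on the changes described here was not tested, and whatever sets the control libraries apart cannot be told apart from the knockdowns in either comparison with scrambled shRNA. The difference between the knockdowns subtracts the same control libraries from both. In a bulk library, more cells of a kind and more RNA per cell cannot be told apart.

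Smooth muscle genes were higher in BAF250A knockdown than with scrambled shRNA. Of the 10 members 7 rose, 0 fell and 3 did not pass, by the authors' Wald test at an adjusted p below 0.05 per the authors' deposited table, where 28.7% of 16450 genes tested were called, 11.2% higher and 17.5% lower. The median log2 fold change of the members was 2.63, against -0.18 over all genes tested, so that relative to that median each member lay 0.18 higher. Myl9, Cnn1, Tagln and Lmod1 were each higher by at least 10.2-fold, Mylk and Acta2 by less, and Smtn and Synpo2 did not pass. Myosin heavy chain Myh11 did not pass, with few reads. The regulator Myocd was also called, and it passed the filter on low values largely through the knockdown libraries, in which nearly all of its reads lay.

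Among the contractile pair of actin and myosin, Acta2 (gene 11475, 34240336 to 34255585 on chromosome 19 in RefSeq's GRCm38.p6, protein-coding like all members) had an implied mean of 367531 normalized counts in BAF250A knockdown and 171283 with scrambled shRNA. It rose by 1.10 (SE 0.43) on the log2 scale, with an adjusted Wald p of 0.0408 per the authors' deposited table. By mean normalized count it ranked 6 in that table and held 0.630% of all mean normalized counts, and 0.326% of its 50-base words occur in another gene. Myl9 (gene 98932, 156775408 to 156781657 on chromosome 2) had an implied mean of 12524 in BAF250A knockdown and 1026 with scrambled shRNA. Its rise of 3.61 (SE 0.45), or 12.2-fold, had an adjusted Wald p of 2.76e-14 per the authors' deposited table. No word of 50 bases of Myl9 occurs in another gene, so that its close relatives Myl12a and Myl12b do not share such words with it. Mylk (gene 107589, 34745199 to 35002436 on chromosome 16) rose by 1.77 (SE 0.48), or 3.41-fold, with an adjusted Wald p of 0.00136 per the authors' deposited table. Its implied means were 3662 in BAF250A knockdown and 1073 with scrambled shRNA, and 4.87% of its exonic length is overlapped by E130310I04Rik on the opposite strand.

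The actin-binding proteins split into 3 that rose and 2 that did not pass. Cnn1 (gene 12797, 22099221 to 22109221 on chromosome 9) rose by 3.60 (SE 0.43), or 12.1-fold, with an adjusted Wald p of 4.25e-15 per the authors' deposited table. Its implied mean was 5149 in BAF250A knockdown and 424 with scrambled shRNA. Tagln (gene 21345, 45929628 to 45936058 on chromosome 9) rose by 3.47 (SE 0.42), or 11.1-fold, with an adjusted Wald p of 3.32e-15 per the authors' deposited table. Its implied mean was 34281 in BAF250A knockdown and 3085 with scrambled shRNA, and 62.4% of its exonic length is overlapped by Gm48529, annotated on the opposite strand, from which it cannot be told apart where counting ignores strand, a setting not given in the sources used here. Lmod1 (gene 93689, 135324813 to 135368065 on chromosome 1), which nucleates actin filaments, rose by 3.36 (SE 0.48), or 10.2-fold, with an adjusted Wald p of 6.08e-11 per the authors' deposited table. Its implied mean was 3582 in BAF250A knockdown and 350.0 with scrambled shRNA. Smtn (gene 29856, 3517522 to 3539292 on chromosome 11) stood at 0.67 (SE 0.46) with an adjusted Wald p of 0.282 per the authors' deposited table, and 16.3% of its exonic length is overlapped by Gm11946 on the opposite strand. Synpo2 (gene 118449, 123076519 to 123236168 on chromosome 3) stood at 0.18 (SE 0.42) with an adjusted Wald p of 0.791 per the authors' deposited table. The implied means of Smtn were 20873 in BAF250A knockdown and 13133 with scrambled shRNA, and those of Synpo2 were 4443 in BAF250A knockdown and 3917 with scrambled shRNA. The 95% interval of Synpo2 ran from -0.64 to 1.00 and that of Smtn from -0.23 to 1.56 on the log2 scale, so that a rise like those of Cnn1, Tagln and Lmod1 lies outside both.

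**Figure D2:**
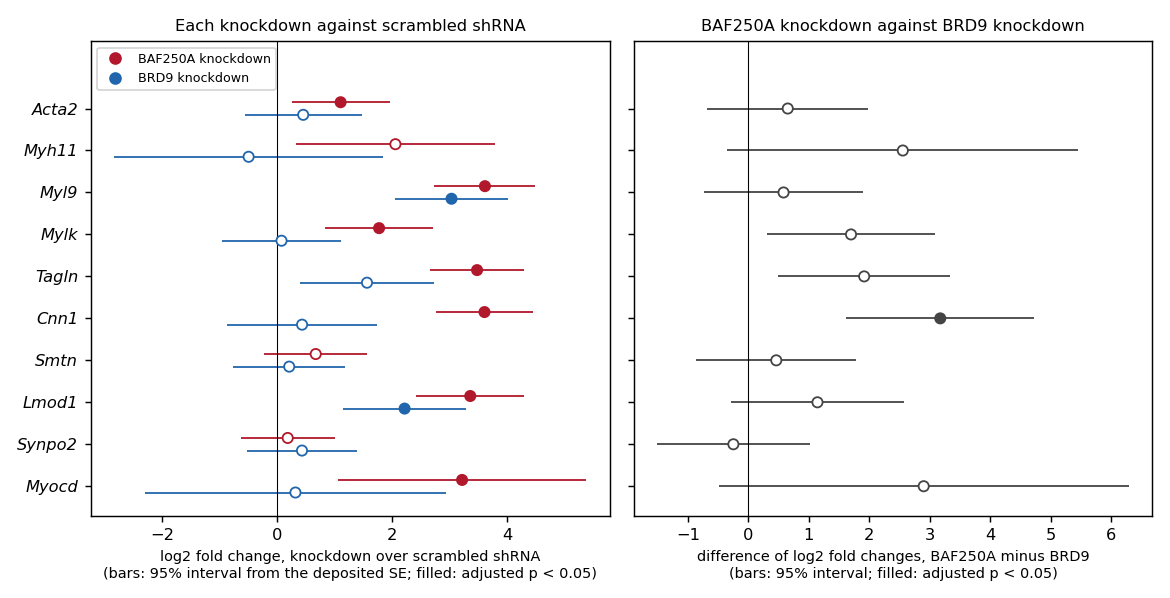
Left, log2 fold change over scrambled shRNA (x axis) of the 10 smooth muscle genes (y axis) in BAF250A knockdown and in BRD9 knockdown, with 95% intervals from the deposited SE and filled points at an adjusted p below 0.05; right, the difference of the log2 fold changes, BAF250A minus BRD9, with its 95% interval. In BAF250A knockdown 7 points are filled, in BRD9 knockdown Lmod1 and Myl9, and in the difference Cnn1 alone.

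In BRD9 knockdown the light chain gene Myl9 and the leiomodin gene Lmod1 rose among the smooth muscle genes. Of the 10 members 2 rose, 0 fell and 8 did not pass per the authors' deposited table, where 14.4% of 17198 genes tested were called, 5.11% higher and 9.33% lower. The median log2 fold change of the members was 0.43, against -0.15 over all genes tested. Myl9 rose by 3.03 (SE 0.50), or 8.16-fold, with an adjusted Wald p of 5.10e-08 per the authors' deposited table. Its implied means were 8884 in BRD9 knockdown and 1088 with scrambled shRNA. Lmod1 rose by 2.21 (SE 0.55), or 4.64-fold, with an adjusted Wald p of 0.000729 per the authors' deposited table, and its implied means were 1692 in BRD9 knockdown and 365 with scrambled shRNA. Both comparisons share the scrambled shRNA libraries, so that a high or low control value would move a gene the same way in each.

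The other members did not pass in BRD9 knockdown. Tagln, at 1.56 (SE 0.59), lay just outside the threshold with an adjusted Wald p of 0.0558 per the authors' deposited table. Its implied means were 9515 in BRD9 knockdown and 3227 with scrambled shRNA. Acta2 stood at 0.45 (SE 0.52), Cnn1 at 0.43 (SE 0.66) and Synpo2 at 0.43 (SE 0.49) per the authors' deposited table. Smtn stood at 0.21 (SE 0.49) and the kinase gene Mylk at 0.07 (SE 0.53) per the authors' deposited table. The implied means of Cnn1 were 575 in BRD9 knockdown and 426 with scrambled shRNA, and those of Mylk were 1162 in BRD9 knockdown and 1104 with scrambled shRNA. Acta2 had 243025 in BRD9 knockdown and 177786 with scrambled shRNA. The intervals leave room for change, from -0.96 to 1.11 for Mylk and from -0.87 to 1.73 for Cnn1 on the log2 scale. The SE of Cnn1 in the BRD9 table was higher than that of 96.1% of 3554 genes with a mean within 2-fold of its own, and the SE of Tagln was higher than that of 95.7% of 2371 such genes. In the BAF250A table their SE stood at percentiles of 23.0 and 6.27, with the same control libraries, and the values of the BRD9 knockdown libraries behind this spread were not analysed here.

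**Figure D3:**
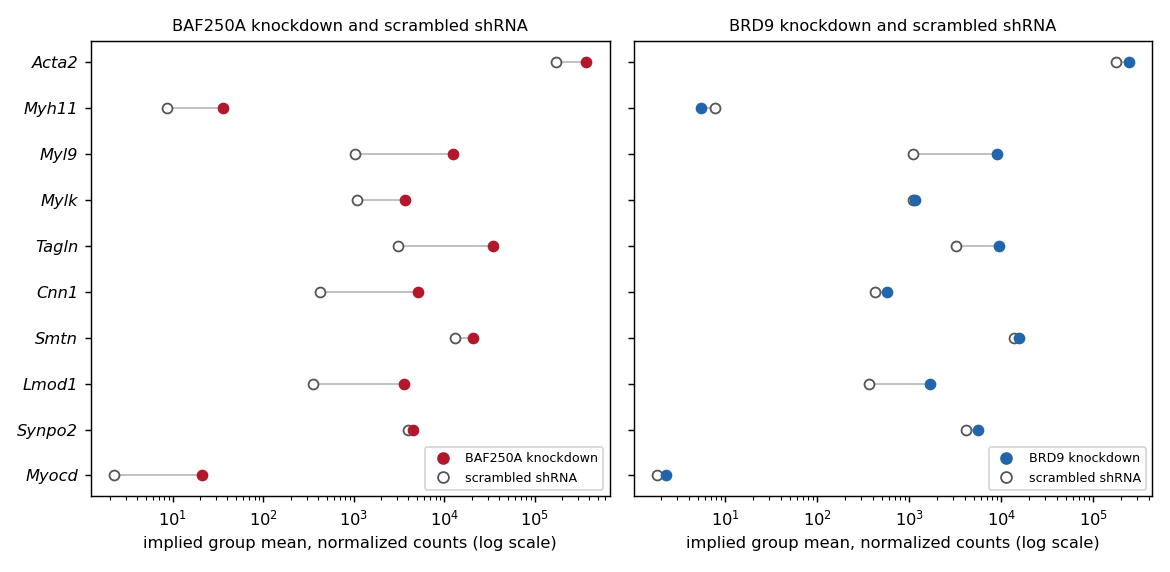
Implied group means in normalized counts (x axis, log scale) of the 10 smooth muscle genes in BAF250A knockdown and scrambled shRNA (left) and in BRD9 knockdown and scrambled shRNA (right), each scaled within its own table. Filled points are knockdowns and open points scrambled shRNA, and Cnn1 stands at 5149 in BAF250A knockdown and at 575 in BRD9 knockdown.

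Set against each other, the knockdowns differed at Cnn1. The difference of the log2 fold changes, BAF250A minus BRD9, was 3.17 (SE 0.79, 95% interval 1.62 to 4.72) with a Benjamini-Hochberg adjusted p of 0.00438 by a z test on the deposited values over all 16311 genes tested in both tables. Of the 10 members 1 was called higher and 0 lower, where 2.54% of all genes were called, 0.552% higher and 1.99% lower. Tagln differed by 1.91 (SE 0.72, interval 0.50 to 3.33) and Mylk by 1.70 (SE 0.71, interval 0.30 to 3.09), with adjusted p of 0.194 and 0.318 in the z test. This SE treats the shared controls as independent. With a share of 0.5 of the mean squared SE taken as common to both tables and removed, 3 members were called higher (Cnn1, Tagln and Mylk, adjusted p of 1.04e-06, 0.00437 and 0.0139 in the z test), where 2.59% of all genes were called higher. The share of 0.5 was assumed and not estimated. The SE of Cnn1 and Tagln was larger in the BRD9 table with the same control libraries. For these genes the share may remove too much, which would make their p too small. For Lmod1 the difference was 1.14 (interval -0.28 to 2.57), for Acta2 0.65 (interval -0.68 to 1.98) and for Myl9 0.58 (interval -0.74 to 1.90). Smtn and Synpo2 had differences of 0.46 (interval -0.86 to 1.78) and -0.25 (interval -1.51 to 1.01). The low-count members Myocd and Myh11 had differences of 2.90 (SE 1.73, interval -0.49 to 6.29) and 2.55 (SE 1.48, interval -0.35 to 5.45), with adjusted p of 0.821 and 0.781 in the z test. The intervals of these 7 genes hold 0 and also hold differences of more than 1 on the log2 scale.

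The least abundant members, Myh11 and Myocd, could be resolved into whole reads of each library. Myocd (gene 214384, 65173608 to 65269989 on chromosome 11) had 16 and 18 reads in the BAF250A knockdown libraries, 2 and 2 in the BRD9 knockdown libraries and 2 and 2 in the scrambled shRNA libraries. The BAF250A libraries lie above all others, and the other 4 hold the same number of reads before scaling for depth. Relative to depth, its reads were 14.4 times as frequent in BAF250A knockdown as with scrambled shRNA, with an exact 95% interval of 5.14 to 55.9 that covers counting error only. The log2 ratio of the depth-scaled group means of these reads was 3.80, and the value of Myocd per the authors' deposited table was 3.21 (SE 1.10), with an adjusted Wald p of 0.0159. Myh11 (gene 17880, 14194527 to 14292188 on chromosome 16) had 26 and 32 reads in BAF250A knockdown, 2 and 6 in BRD9 knockdown and 6 and 13 with scrambled shRNA. Before scaling for depth, the BAF250A libraries again lie above the rest without overlap, and the BRD9 and scrambled shRNA libraries touch. How many other genes of like count show such an order was not counted, and this comparison with scrambled shRNA called 28.7% of all genes tested. The value of Myh11 was 2.05 (SE 0.88) with an adjusted Wald p of 0.0639 for BAF250A per the authors' deposited table, which did not pass. Its ratio of reads relative to depth was 5.18 for BAF250A (exact 95% interval 3.04 to 9.20, counting error only) and 0.660 for BRD9 (0.250 to 1.58). The values of Myocd and Myh11 for BRD9 were 0.32 (SE 1.34) and -0.50 (SE 1.19) per the authors' deposited table. All knockdown reads of both genes came in even numbers, as did most low counts of those libraries. The intervals take every read as independent and are too narrow if both mates of a fragment were counted, which was not tested.

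**Figure D4:**
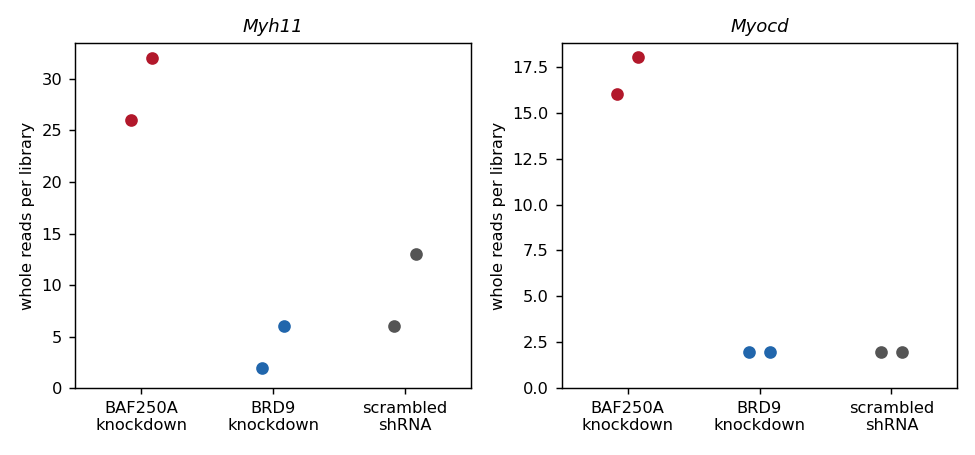
Whole reads per library (y axis, not scaled for depth) of Myh11 and Myocd in the 2 libraries of BAF250A knockdown, BRD9 knockdown and scrambled shRNA (x axis). The BAF250A libraries hold 26 and 32 reads of Myh11 and 16 and 18 of Myocd, above every other library.

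Levels of different members were compared per kilobase of merged exons in GENCODE M21, as implied means from the authors' deposited BAF250A table. In BAF250A knockdown the level was 167364 normalized counts per kilobase for Acta2, 17244 for Tagln, 10778 for Myl9 and 4766 for Smtn. Cnn1 followed at 1882 and Lmod1 at 907, with Synpo2 at 339 and Mylk at 325 close together. With scrambled shRNA Acta2 also led, at 77998 per kilobase, but Smtn came next at 2998, before Tagln at 1552 and Myl9 at 883. Synpo2 at 299, Cnn1 at 155, Mylk at 95.3 and Lmod1 at 88.7 were next in that group. Myh11, at 4.75 in BAF250A knockdown and 1.14 with scrambled shRNA, and Myocd, at 3.26 in BAF250A knockdown and 0.351 with scrambled shRNA, were far below the rest. For these genes the scrambled shRNA levels are too high. Their implied control means before scaling by length, 8.69 for Myh11 and 2.26 for Myocd, exceed the 7.85 and 1.55 of the solved reads. The order of Mylk and Lmod1 with scrambled shRNA and that of Synpo2 and Mylk in BAF250A knockdown rest on close values, and no spread between libraries was available for it. In BRD9 knockdown Acta2 stood at 110667 per kilobase, Myl9 at 7645, Tagln at 4786 and Smtn at 3587, each implied from the authors' deposited BRD9 table.

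Listed paralogues of the members, genes of the same families, moved in both directions in BAF250A knockdown. The list is a selection and not the whole families. Of the sarcomeric myosin heavy chain genes it holds Myh3 alone, and of the striated muscle regulatory light chain genes Mylpf alone. Of 27 listed paralogues measured, 7 rose, 8 fell and 12 did not pass per the authors' deposited table, where 28.7% of all genes tested were called, and their median was -0.10. Those that fell were Acta1, Actc1, Myh3, Lmod2, Lmod3, Synpo2l, Mylk2 and Mylpf, all known from striated muscle. Those that rose were the smooth muscle gamma-actin gene Actg2, the cytoplasmic actin gene Actg1, the calponin genes Cnn2 and Cnn3, the light chain genes Myl12a and Myl12b, and Mylk4. Among the leiomodins, Lmod1 rose by 3.36 (SE 0.48), while Lmod2 fell by 3.21 (SE 0.44) and Lmod3 fell by 3.40 (SE 0.45) per the authors' deposited table. Among the light chain kinases, Mylk rose by 1.77 (SE 0.48), while Mylk2, the skeletal muscle kinase, fell by 4.51 (SE 0.55) per the authors' deposited table. The skeletal muscle light chain gene Mylpf fell by 3.16 (SE 0.55), whereas Myl12a, at 1.32 (SE 0.43), and Myl12b, at 1.17 (SE 0.46), rose per the authors' deposited table. These values are uncertain where sequence is shared, as 16.4% of the 50-base words of Myl12a, 19.1% of those of Myl12b and 10.3% of those of Cnn3 occur in other genes.

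The actin family held genes that rose and genes that fell. The smooth muscle gene Actg2 rose by 3.94 (SE 0.42), or 15.4-fold, against 2.15-fold for Acta2, while the skeletal gene Acta1 fell by 2.64 (SE 0.51) and the cardiac gene Actc1 fell by 1.52 (SE 0.47) per the authors' deposited table. The cytoplasmic actin genes stood at 0.47 (SE 0.42) for Actb, which did not pass, and 1.50 (SE 0.45) for Actg1, which rose, per the authors' deposited table, and 37.4% of the 50-base words of Actg1 occur in other genes. The synaptopodin gene Synpo2l fell by 2.78 (SE 0.44) and Synpo stood at 0.84 (SE 0.42) per the authors' deposited table, and Synpo did not pass. The embryonic myosin gene Myh3 fell by 4.38 (SE 0.44), while the nonmuscle myosin genes Myh9, at 0.77 (SE 0.42), and Myh10, at 0.59 (SE 0.47), did not pass per the authors' deposited table. Tagln2 stood at -0.02 (SE 0.46), and the coactivator genes Mrtfa at -0.10 (SE 0.42) and Mrtfb at -0.40 (SE 0.52) per the authors' deposited table, none of which passed. Cnn2 rose by 1.14 (SE 0.44), Cnn3 by 2.08 (SE 0.45) and Mylk4 by 1.36 (SE 0.51) per the authors' deposited table. Tagln3, Myh14, Smtnl1 and Mylk3 had at most 24 reads in any library, and these and Smtnl2 did not pass.

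In BRD9 knockdown 4 of the 27 paralogues rose and 0 fell, with a median of 0.41 per the authors' deposited table, where 14.4% of all genes were called. They were Mylk4 at 3.19 (SE 0.59), Actc1 at 2.20 (SE 0.52), Actg2 at 1.73 (SE 0.60) and Cnn3 at 1.71 (SE 0.50) per the authors' deposited table. Between the knockdowns 7 of the 27 were lower in BAF250A knockdown (Actc1, Myh3, Lmod2, Lmod3, Synpo2l, Mylk2 and Mylpf) and 0 were higher by the z test. That test called 1.99% of all genes lower and 0.552% higher. Lmod2 differed by -3.61 (SE 0.67) and Lmod3 by -3.86 (SE 0.68), with adjusted p of 1.85e-05 and 3.73e-06 in the z test, whereas the smooth muscle member Lmod1 differed by 1.14 (SE 0.73) with an adjusted p of 0.899. Actc1 differed by -3.72 (SE 0.70), with an adjusted p of 2.50e-05 in the z test, and Actg2 by 2.22 (SE 0.74), with an adjusted p of 0.0856.

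**Figure D5:**
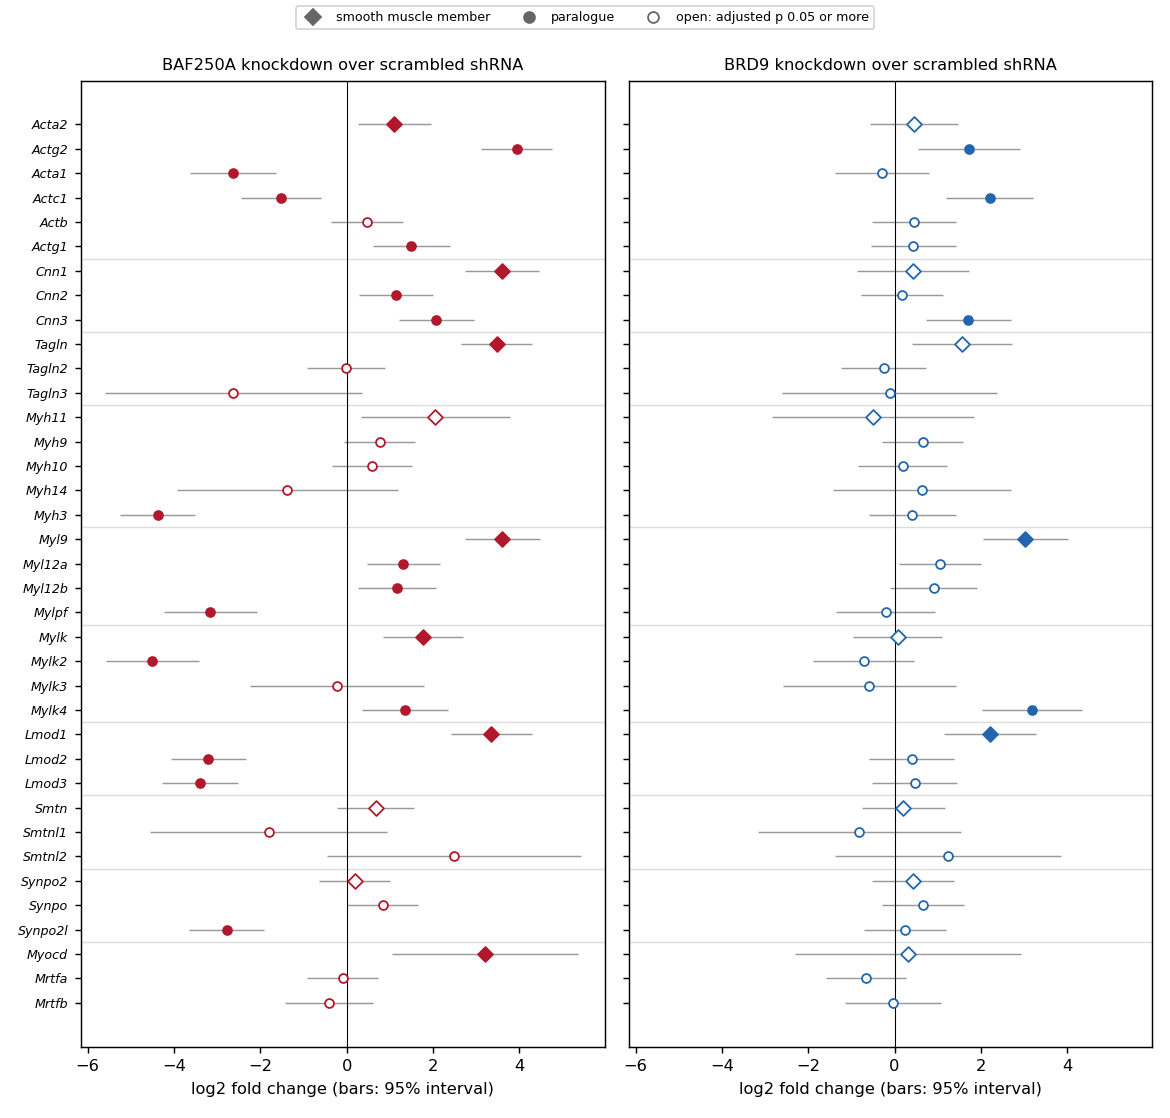
Log2 fold change over scrambled shRNA (x axis, with 95% intervals) of the smooth muscle genes (diamonds) and their listed paralogues (circles), grouped by family, in BAF250A knockdown (left) and BRD9 knockdown (right), with filled symbols at an adjusted p below 0.05. In BAF250A knockdown Lmod1 stands at 3.36 and Lmod2 and Lmod3 at -3.21 and -3.40, and in BRD9 knockdown 4 paralogues are filled.

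Other genes of smooth muscle contraction and its cytoskeleton included genes that rose beside the members and more that did not pass. Of 28 listed, 27 were tested in BAF250A knockdown, of which 9 rose and 1 fell, with a median of 0.69 per the authors' deposited table, where 11.2% of all genes were called higher and 17.5% lower. Besides Actg2, the intermediate filament gene Synm rose by 3.26 (SE 0.49), the integrin gene Itga8 by 2.63 (SE 0.89) and the potassium channel subunit gene Kcnmb1 by 2.61 (SE 0.95) per the authors' deposited table. Itga8 had 26 and 30 reads and Kcnmb1 20 and 26 reads in BAF250A knockdown, against 9 and 4 and against 5 and 5 reads with scrambled shRNA. The others called were Cald1, Myl6, Ppp1r14a, Csrp2 and Pdlim5, which rose, and the tropomyosin gene Tpm2, which fell. In BRD9 knockdown 2 of 27 rose and 1 fell, with a median of 0.32 per the authors' deposited table, where 14.4% of all genes were called, so that this count does not stand above the share of all genes. These were the light chain gene Myl6 at 2.27 (SE 0.55), Actg2 at 1.73 (SE 0.60) and the small heat shock protein gene Hspb6 at -1.46 (SE 0.53) per the authors' deposited table. In the difference between the knockdowns 0 of 27 passed by the z test, and 3 were higher and 2 lower at an unadjusted p below 0.05. Over all 16311 genes in that test, 2.54% passed and 1362 reached the unadjusted level.

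Of 20 regulators of smooth muscle genes found in the tables, 19 were tested. In BAF250A knockdown 2 rose and 1 fell per the authors' deposited table, where 11.2% of all genes were called higher and 17.5% lower. This count does not stand above the share of all genes, which was 28.7% in either direction. Tgfb3 and Tgfb2, ligands that induce smooth muscle genes, rose by 1.78 (SE 0.43) and 1.43 (SE 0.51), and Mef2c fell by 2.23 (SE 0.69), per the authors' deposited table. From the same list, Tgfb1, Tgfbr1, Tgfbr2, Smad2, Smad3 and Smad7 did not pass with BAF250A. Srf stood at -0.52 (SE 0.44) for BAF250A and -0.07 (SE 0.50) for BRD9 per the authors' deposited tables and passed neither test. In BRD9 knockdown 0 of 19 passed the Wald test, which called 14.4% of all genes, with 3 higher and 1 lower at an unadjusted p below 0.05. That unadjusted level was reached by 4146 of all 17198 genes tested with BRD9. Mef2c, at 1.60 (SE 0.70) per the authors' deposited table, was the 1 regulator whose difference between the knockdowns passed, at -3.83 (SE 0.98) with an adjusted p of 0.00657 in the z test. Of all genes, 2.54% passed that z test.

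Markers of other cells moved beside the smooth muscle genes, and their part in the result was not tested. Over all genes tested, 11.2% were called higher and 17.5% lower in BAF250A knockdown, and 5.11% higher and 9.33% lower in BRD9 knockdown. An unadjusted p below 0.05 in the Wald test was reached by 4146 of 17198 genes with BRD9. The 7 myotube markers summed to an implied 22792 normalized counts in BAF250A knockdown, against 206741 with scrambled shRNA. They summed to 267379 in BRD9 knockdown, against 216650 with scrambled shRNA. All 7 (Myog, Mymk, Ckm, Myh3, Tnnt3, Actn3 and Ttn) fell in BAF250A knockdown, with a median of -3.14, and 0 of 7 passed in BRD9 knockdown, 0 also at an unadjusted p below 0.05, with a median of 0.28, per the authors' deposited tables. The 7 fibroblast markers summed to 1024210 in BAF250A knockdown against 82602 with scrambled shRNA, and to 478955 in BRD9 knockdown against 87175 with scrambled shRNA. The collagen genes Col1a1, Col1a2 and Col3a1 made up nearly all of these sums. The other 4 markers summed to 3585 in BAF250A knockdown against 2051 with scrambled shRNA. Most of that rise was Pdgfra, with implied means of 1766 in BAF250A knockdown and 275 with scrambled shRNA. Pdgfra rose by 2.69 (SE 0.47) with BAF250A, and stood at 0.94 (SE 0.54) with BRD9 without passing, per the authors' deposited tables. Dcn stood at 0.01 (SE 0.50) with BAF250A per the authors' deposited table, and neither Dcn nor Lum passed. Of the 7 markers 5 rose in BAF250A knockdown and, in BRD9 knockdown, 3 of the 6 tested, per the authors' deposited tables, with Col1a1 at 4.58 (SE 0.41) with BAF250A and 2.60 (SE 0.48) with BRD9. Thy1, among the 5, had 20 and 10 reads in BAF250A knockdown against 1 and 2 with scrambled shRNA. It passed the filter on low values largely through the knockdown libraries. The 7 markers of pericytes and vascular smooth muscle summed to 31207 in BAF250A knockdown against 18296 with scrambled shRNA, and to 45027 in BRD9 knockdown against 19391 with scrambled shRNA. Without Pdgfrb the other 6 summed to 8911 in BAF250A knockdown against 15344 with scrambled shRNA, and to 25861 in BRD9 knockdown against 16238 with scrambled shRNA. Most of that is Notch3, which stood at -0.88 (SE 0.42) with BAF250A and 0.77 (SE 0.47) with BRD9 per the authors' deposited tables and passed neither test. Of the 7 markers, Pdgfrb rose by 2.92 (SE 0.42) with BAF250A and 2.60 (SE 0.50) with BRD9, and Mcam fell, at -2.27 (SE 0.43) and -2.23 (SE 0.49), per the authors' deposited tables. Cspg4 rose by 1.71 (SE 0.53) with BRD9 per the authors' deposited table and did not pass with BAF250A. The pericyte markers Rgs5, Abcc9 and Kcnj8 had 0 reads in both BAF250A knockdown libraries, at most 32 in a BRD9 library and at most 5 in a scrambled shRNA library. Among markers of endothelium, leukocytes and epithelium, Ptprc and Epcam had 0 reads in all knockdown libraries, and Cd68 fell, at -2.53 (SE 0.60) with BAF250A and -2.46 (SE 0.62) with BRD9, per the authors' deposited tables. Krt8 had 14 and 14 reads in BRD9 knockdown against 0 and 8 with scrambled shRNA, and Cdh5 11 and 4 against 8 and 5. Neither passed with BRD9, and both had at most 2 reads in a BAF250A library. Pecam1 had 8 and 1 reads in BAF250A knockdown, 4 and 0 in BRD9 knockdown and 6 and 7 with scrambled shRNA.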

How the data were processed

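The members and all gene lists were chosen with earlier results of these data known. The material is 2 comparison tables of 27179 genes made by the authors, and values per library of most genes were not analysed here. Per the submitters' processing notes, HISAT, StringTie, Bowtie, RSEM and DESeq2 were used with build mm10, with no role or version given. The deposited mean normalized count, BaseMean per the file headers, is a signal whose low values fit whole reads divided by size factors and averaged over the 4 libraries of a comparison. The authors' fold changes and their SE are on a log2 scale, per the file headers. The Wald score deposited by the authors equals the log2 fold change divided by its SE. Per the file headers, p-values and adjusted p-values of the Wald test were also deposited, and the adjusted values match Benjamini-Hochberg within 7.87e-07 when recomputed. The series' design text names biological duplicates and not how cultures were kept apart, so p-values measure the spread of 2 libraries a group, which may be technical.

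Tables without counts per library allow no count model, so the authors' Wald test was taken as deposited, with adjusted p below 0.05 as the call. Implied group means were derived by taking the fold change as knockdown mean over control mean. Among genes with a mean of 100 or more, only 3 had a BAF250A log2 fold change of 3 to 4 and almost none with BRD9. The control means implied for these by the 2 tables departed by a median of 5.21% from those of 883 unchanged genes. At low counts the deposited values lie closer to 0 than the reads. The difference between knockdowns was a two-sided z test on the deposited values, tested on simulated data. The simulated errors were normal with the deposited SE, so they cannot show whether an SE from 2 libraries a group is right. Whole reads of low genes were solved from the mean normalized counts, and control reads were the same in 4076 of 4076 genes solved in both tables. The libraries common to both tables were taken as controls, and which of the libraries A and B is which is unknown. Named were all members, their listed paralogues and, from each other list, up to 4 called genes of the largest size in each comparison. Further genes of these lists, called or not, were named outside this rule. The MCAT search was chosen after seeing the data. Shared words are 50-base stretches of GENCODE M21 transcripts, and all 10 members matched RefSeq by gene ID. Python 3.11.15, pandas 2.3.3 and SciPy 1.17.1 were used. The smallest mean normalized count with an adjusted p was 2.51 for BAF250A and 1.61 for BRD9, and all 10 members passed this filter in both.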

Additional observations from a re-analysis of the deposited data

Results flagged for a closer look

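Cnn1, the calponin gene, is listed because its response differed between the knockdowns by the test of the difference itself. Its log2 fold change over scrambled shRNA was higher by 3.17 (SE 0.79) with BAF250A than with BRD9, with a Benjamini-Hochberg adjusted p of 0.00438 in the z test over 16311 genes. The groups have 2 libraries each, so that no sample could be set against its own group.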

How the results depend on the processing

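Of the values of single members under the alternatives, 139 kept direction and call, 4 newly passed, 11 no longer passed and 0 turned direction. Direction could turn only under centring, because the other alternatives keep the log2 values as they are. Bonferroni adjustment and the threshold of 0.01 could only remove calls. Many of the unchanged values were therefore fixed in advance. The count of members called higher in BAF250A knockdown, 7 as deposited, was 4 with Bonferroni adjustment and 4 when the log2 fold change was tested against 1, with Acta2, Mylk and Myocd no longer called in either. In BRD9 knockdown it was 1 in place of 2 under the same settings, with Lmod1 no longer called. Centring on the median of all genes tested added 0.18 and 0.15 to the log2 values and brought Myh11 (adjusted p of 0.0409 by the Wald test) into the BAF250A calls and Tagln (0.0290) into the BRD9 calls. At an adjusted p below 0.01, Acta2 and Myocd were no longer called. In the difference between knockdowns, 3 members were called with the assumed shared variance removed and 0 with Bonferroni adjustment, against 1. Over all genes, the BAF250A calls were 1565 with Bonferroni adjustment and 2030 against 1, in place of 4729, and the BRD9 calls 940 and 1174, in place of 2483. The difference gave 1231 calls with shared variance removed, 123 with Bonferroni adjustment and 271 at a mean of 100 or more, in place of 414. The CArG count was 1 with no mismatch allowed, in place of 3. No paired analysis was possible because the tables hold comparisons and not libraries with their letters, and for the same reason no library was left out and no count model was run. With a median SE of 0.48 and 0.54 among genes with a mean of 100 or more, the smallest called log2 change had a size of 1.02 in the BAF250A and 1.29 in the BRD9 comparison.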
